A study of Mus musculus with 6 samples.

Results

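GLUTag cells are a mouse enteroendocrine cell line, derived from an intestinal tumour of a transgenic mouse, that makes proglucagon and releases GLP-1. The genes described here encode the machinery that docks, primes and fuses secretory vesicles, namely the SNARE proteins, their Munc18, Munc13, CAPS and complexin partners, the NSF and SNAP proteins, the synaptotagmins, and the Rab3 and Rab27 GTPases with their effectors. They were chosen by name, as 58 mouse gene symbols, and 57 of them were read from a matrix of 54281 genes, while Vamp7 was not analysed here. All cells were of a single condition, GLUTag grown for 48 h in low glucose medium (1 g/L) with 10% FBS, with no treatment and no second genotype. The 6 libraries came from 2 plates, 3 libraries of plate 1 at passage 23 and 3 of plate 2 at passage 27, and effects of the plate cannot be told apart from those of the passage. The p-values therefore measure the spread between libraries that may share a culture.

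Exocytosis of a hormone granule requires a complex of SNARE proteins that zips the vesicle to the plasma membrane. A syntaxin and a SNAP protein on the plasma membrane bind a VAMP protein on the vesicle, Munc18 and Munc13 proteins control the assembly, and synaptotagmins act as calcium sensors that couple calcium entry to fusion. Enteroendocrine cells share this apparatus with neurons and pancreatic islet cells, and each step is served by a family of paralogues.

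The libraries were made from the 3′ ends of polyadenylated RNA, so that a read stands for a transcript whatever its length. Levels of different genes were therefore set side by side within a library. How evenly the ends of different genes were captured and assigned was not tested. A bias of a gene that recurs in every library would not show in the comparisons of genes below. Totals lay between 21399987 and 36488198 counts. Levels are given as counts scaled to a common library total (CPM), first for plate 1 in the order of replicates 1 to 3, and then for plate 2 in the order of lowest, middle and highest total. Where a gene had 0 counts, this allows up to 3, which is 0.0822 to 0.140 CPM depending on the library, for counting error only. The median log2 difference of plate 2 over plate 1 was 0.30 across 15669 genes with library totals alone, which scaling by trimmed means (TMM) brought to 0.03. The plate 2 library of middle total also stood apart from the other 5 over many genes, and values without it are given for some of the results. In bulk RNA, fewer cells of a kind and less RNA per cell cannot be told apart.

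All 10 enteroendocrine marker genes, proglucagon (Gcg) and chromogranin A (Chga) among them, had at least 81.2 CPM on average, and their sum lay between 5854 and 7915 CPM. The 6 fibroblast markers summed to between 4.71 and 7.06 CPM, nearly all of it Col1a2, with Col3a1 and Lum at 0 counts, the 5 leukocyte markers to at most 1.12 CPM, and the 5 enterocyte markers to at most 4.3 CPM. Of the 6 neuronal markers 4 reached 1 CPM in every library, led by Tubb3 at 44.1 CPM and Gad2 at 36.7 CPM, both above the median of the detected genes, and the list summed to between 78.9 and 98.5 CPM. Rbfox3, the defining nuclear marker of neurons, was at 0.328 CPM. The part of these genes in the levels below was not tested.

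Of the 57 genes, 49 had at least 1 CPM in every library, against 22.8% of all genes in the matrix. The 57 were chosen with earlier results of these data known, and 32426 genes of the matrix had at most 3 counts in any library. The 2 shares are therefore a description only. The median level of the 49 was 27.9 CPM, compared with 21.4 CPM over the 12360 genes that met the same minimum. Only 7 averaged at least 100 CPM, 28 lay from 10 to under 100 CPM, and 14 of those that met the minimum stayed below 10 CPM. The 7 with the highest means were Unc13d, Rph3al, Syt1, Syt11, Rab3c, Syt7 and Vamp3. The 8 genes under the minimum were Cplx3, Syt6, Syt10, Doc2b, Rph3a, Rims1, Sytl4 and Sytl5, and of these Cplx3 had 0 counts in all 6 libraries, so that it was not detectable at this depth.

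**Figure D1:**
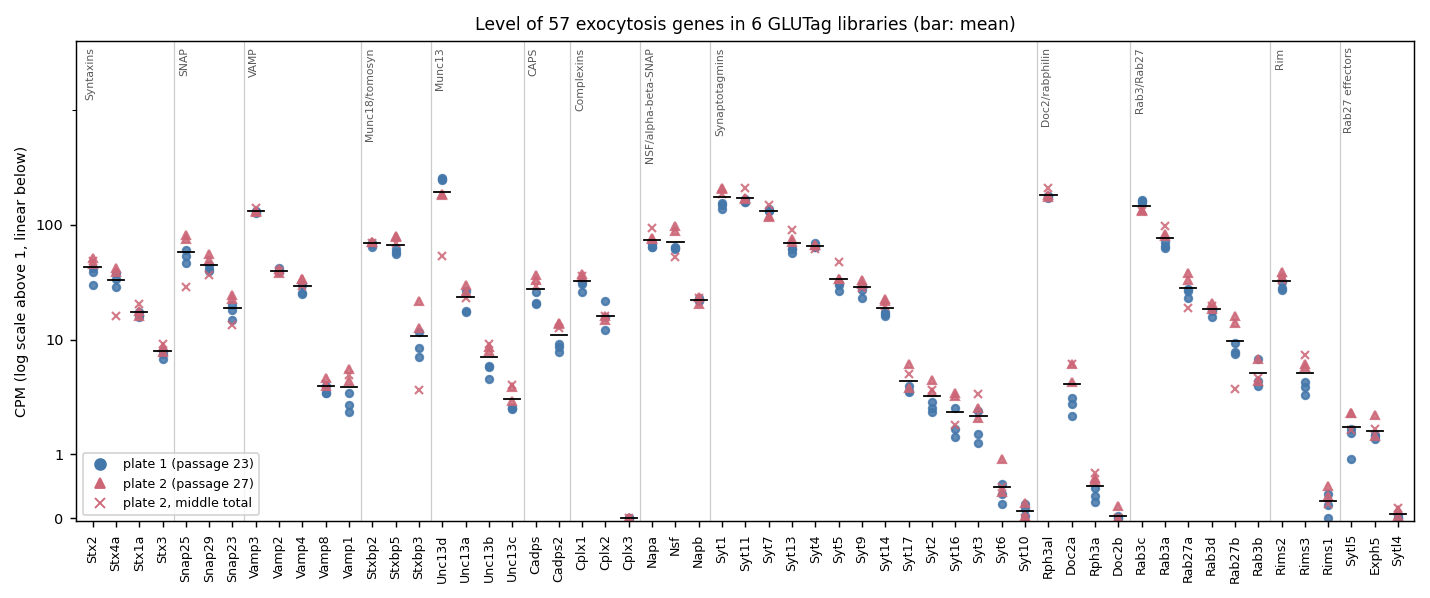
Level of each of the 57 genes in each library, grouped by role. The vertical axis is CPM, logarithmic above 1 and linear below, points are libraries and bars are means over 6 libraries. Unc13d has the highest mean, 195 CPM, although Syt1 is higher in each plate 2 library, and the cross of Unc13d, the plate 2 library of middle total, sits far below its other libraries.

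Among the syntaxins, the plasma membrane SNAREs that anchor the complex, Stx2 was the highest and Stx3 the lowest on average, with the neuronal form Stx1a between Stx4a and Stx3. Stx2 (ENSMUSG00000029428, chromosome 5 of GRCm38, 128984557 to 129008574, minus strand) had 42.0, 38.9 and 29.7 CPM on plate 1 and 51.6, 48.6 and 45.7 CPM on plate 2. Stx4a had 33.4, 29.0 and 38.0 CPM on plate 1 and 38.8, 16.2 and 42.0 CPM on plate 2. The lowest Stx4a value was that of the plate 2 library of middle total. Stx1a (ENSMUSG00000007207, chromosome 5 of GRCm38, 135023482 to 135051100, plus strand), the syntaxin of neurons and neuroendocrine cells, had 16.3, 15.7 and 17.3 CPM on plate 1 and 16.0, 20.3 and 17.8 CPM on plate 2, with overlapping plates. Stx3, which serves apical membranes and ribbon synapses, was lowest with 7.92, 6.85 and 7.43 CPM on plate 1 and 7.80, 9.12 and 8.66 CPM on plate 2. Stx1a was higher than Stx3 in 6 of 6 libraries, by 1.03 ± 0.08 in log2 of CPM + 1 (SD, n = 6, exact permutation p = 0.03125, 0.0341 after adjustment). It was lower than Stx4a in 5 of 6 libraries, by 0.84 on average (exact permutation p = 0.0625, adjusted p = 0.0652), and this difference was 1.07 without the library that stood apart, in which it turned to 0.31 in favour of Stx1a. Stx2 against Stx4a, an order read from the values and not tested, held in 5 of 6 libraries, the exception being plate 1 replicate 3. Stx1a made up 17.3 ± 2.64% of the counts of the 4 syntaxins (SD, n = 6).

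The SNAP proteins contribute a pair of helices to the complex. Snap25 (ENSMUSG00000027273, chromosome 2 of GRCm38, 136713453 to 136782428, plus strand), the form of neurons and endocrine cells, had 53.5, 46.7 and 60.5 CPM on plate 1 and 75.6, 28.5 and 81.9 CPM on plate 2. Snap29, which acts mostly on internal membranes, had 44.2, 39.8 and 41.5 CPM on plate 1 and 49.7, 36.7 and 56.0 CPM on plate 2. Snap23, the widely expressed form, had 18.0, 14.7 and 19.9 CPM on plate 1 and 24.4, 13.5 and 22.4 CPM on plate 2. Snap25 exceeded Snap23 in 6 of 6 libraries by 1.52 ± 0.26 (log2, SD, n = 6, exact permutation p = 0.03125, adjusted p = 0.0341). It was not separated from Snap29, with a mean log2 difference of 0.30 ± 0.36 (SD, n = 6) and a higher value in 5 of 6 libraries (exact permutation p = 0.125, adjusted p = 0.125). The exception was again the plate 2 library of middle total, at -0.35, and the mean was 0.43 without it. In the other 5 libraries Snap25 was at 46.2% to 51.1% of the counts of the 3 SNAP genes, and in that library at 36.2%.

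The vesicle SNAREs had a leader other than the neuronal form. Vamp3 (ENSMUSG00000028955, chromosome 4 of GRCm38, 151047300 to 151057963, minus strand), or cellubrevin, found in most cell types, had 130.4, 131 and 125 CPM on plate 1 and 130.2, 139 and 131 CPM on plate 2. Vamp2 (ENSMUSG00000020894, chromosome 11 of GRCm38, 69088490 to 69092384, plus strand), the synaptobrevin of synaptic vesicles and insulin granules, had 39.6, 38.5 and 42.0 CPM on plate 1 and 41.0, 39.8 and 38.4 CPM on plate 2. The plates overlapped in CPM for both genes. Vamp4, of the trans-Golgi network, had 29.8, 25.1 and 25.4 CPM on plate 1 and 33.4, 29.3 and 33.6 CPM on plate 2, above Vamp8 and Vamp1. Vamp8, of endosomes and zymogen granules, lay between 3.46 and 4.66 CPM and Vamp1, a further synaptobrevin, between 2.33 and 5.54 CPM, and these neighbours had no settled order, with Vamp8 higher in 4 of 6 libraries. Vamp2 was lower than Vamp3 in 6 of 6 libraries by 1.69 ± 0.08 (log2, SD, n = 6) and higher than Vamp1 and Vamp8 in 6 of 6 by 3.11 and 3.05 (each exact permutation p = 0.03125, adjusted p = 0.0341). Vamp3 thus held 63 ± 1.44% and Vamp2 19.2 ± 1.06% of the counts of the 5 VAMP genes (SD, n = 6). The annotation places Vamp3 within the span of Camta1 on the same strand.

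**Figure D2:**
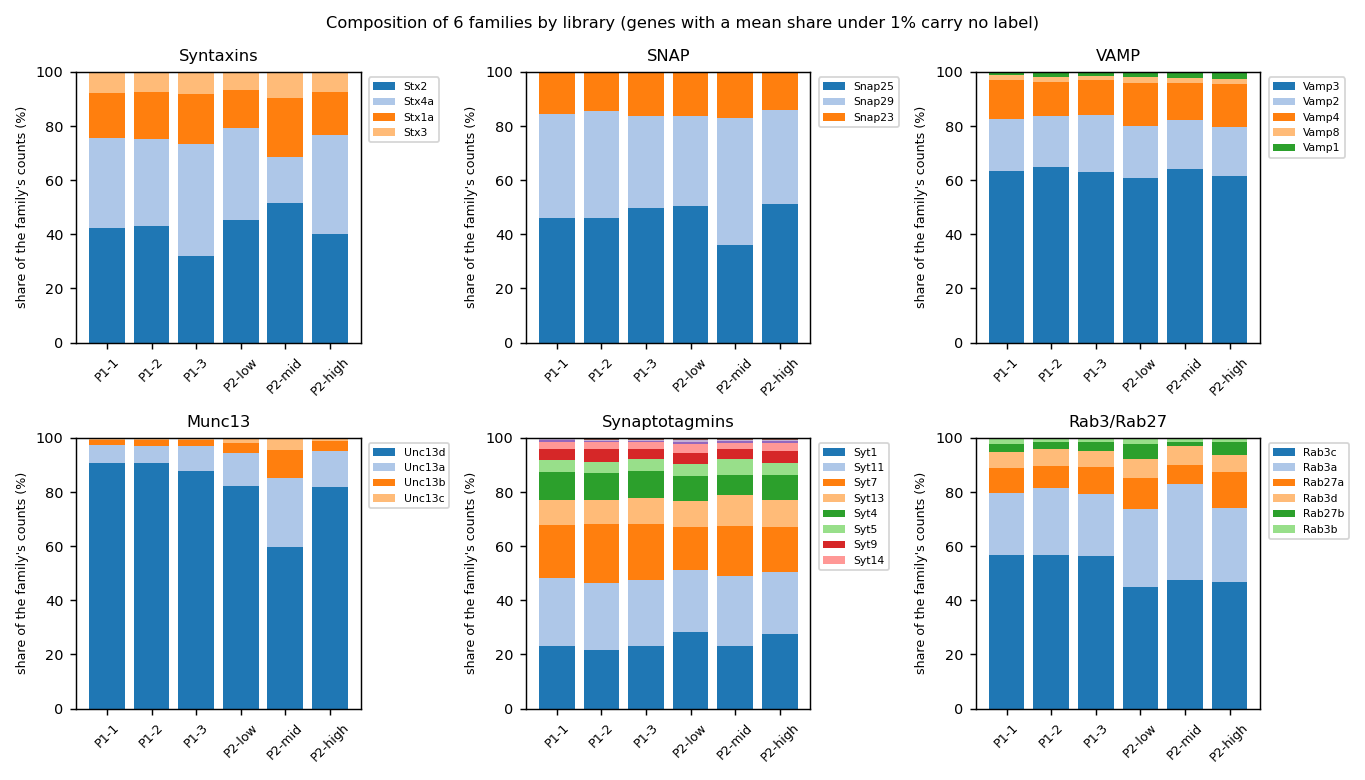
Share of each gene in the counts of its family, in percent, for 6 families and 6 libraries (P1-1 to P1-3, plate 1 replicates, and P2-low, P2-mid and P2-high, plate 2 by total). Vamp3 holds 60.9% to 64.8% of the VAMP counts in every library, whereas Unc13d is at 59.7% in P2-mid.

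Munc18 proteins clasp syntaxin, and tomosyn (Stxbp5) competes with VAMP proteins for it. Stxbp2 (ENSMUSG00000004626, chromosome 8 of GRCm38, 3630955 to 3643644, plus strand), or Munc18-2, had 67.8, 64.4 and 68.8 CPM on plate 1 and 70.2, 69.4 and 71.5 CPM on plate 2. Stxbp5 had 55.6, 58.4 and 61.7 CPM on plate 1 and 77.9, 70.0 and 79.6 CPM on plate 2. The order of the pair followed the plate, with Stxbp2 higher in 3 of 6 libraries, those of plate 1, and Stxbp5 higher in those of plate 2. Stxbp3, or Munc18c, the partner of Stx4a, had 8.46, 7.07 and 11.5 CPM on plate 1 and 12.7, 3.66 and 21.5 CPM on plate 2. Its lowest and highest libraries were both on plate 2. Stxbp2 exceeded Stxbp3 in 6 of 6 libraries, by 2.72 ± 0.75 (log2, SD, n = 6, exact permutation p = 0.03125, adjusted p = 0.0341). Of the stretches of 31 bases in the last 500 nt of the Stxbp3 transcripts, 29.7% also occur in another gene, all of them in the copy Stxbp3-ps. That copy was listed at 0 counts in each library, so how the counting divided such reads is uncertain. The shares were 12.6% for Vamp3, 11.8% for Rab27a and 11.5% for Snap23. What part of the reads this touches was not tested.

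The promoter of Stxbp3 is shown because it holds the palindrome TGACGTCA, the letters of a cAMP response element, in capitals. It is the 250 bases before the start site (RefSeq, GRCm38.p6, chr3:108840503-108840752, minus strand).
Stxbp3: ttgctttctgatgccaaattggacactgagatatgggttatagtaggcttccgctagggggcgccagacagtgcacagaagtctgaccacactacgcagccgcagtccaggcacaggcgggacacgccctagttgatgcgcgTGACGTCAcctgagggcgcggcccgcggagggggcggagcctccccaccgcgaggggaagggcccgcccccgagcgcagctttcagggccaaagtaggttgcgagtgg
These letters occur in 1.79% of 32851 RefSeq promoter windows of 300 bases (250 before the start and 50 after it), and among the 44 genes with such a window only in those of Stxbp3 and Napa. A match is a description of the letters and not evidence of a site.

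Munc13 proteins open syntaxin and prime vesicles, and this family held the gene with the highest mean over the 6 libraries, although Syt1 was higher in each plate 2 library. Unc13d (ENSMUSG00000057948, chromosome 11 of GRCm38, 116062095 to 116077961, minus strand), or Munc13-4, known from granule release of cytotoxic lymphocytes, platelets and mast cells, had 243, 256 and 252 CPM on plate 1 and 180.1, 53.5 and 184 CPM on plate 2. The 3 plate 1 libraries lay above all of plate 2, and the plate 2 library of middle total was lowest. Unc13d averaged 195 ± 77 CPM (SD, n = 6), or 223 CPM without that library, at percentile 93.5 of the detected genes. The 5 leukocyte markers, whose part in this level was not tested, summed to between 0.458 and 1.12 CPM in these libraries, with Cd68 highest at 0.633 CPM and Ptprc at 0.0322 CPM. Unc13a (ENSMUSG00000034799, chromosome 8 of GRCm38, 71624417 to 71671757, minus strand), or Munc13-1, the main priming factor of neurons and beta cells, had 17.9, 17.3 and 26.6 CPM on plate 1 and 26.1, 22.9 and 29.7 CPM on plate 2. Unc13b, or Munc13-2, lay between 4.5 and 9.19 CPM and Unc13c, or Munc13-3, between 2.48 and 4.01 CPM. Unc13b was below Unc13d in 6 of 6 libraries by 4.49 ± 1.13 and below Unc13a in 6 of 6 by 1.62 ± 0.29 (log2, SD, n = 6, each exact permutation p = 0.03125, adjusted p = 0.0341). The first of these differences was 5.30 on plate 1 and 3.67 on plate 2. Unc13d held 87.8% to 90.9% of the counts of the 4 genes on plate 1, 82.4% and 81.9% in the plate 2 libraries of lowest and highest total, and 59.7% in the one with the middle total.

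A short stretch at the start of Unc13a is shown because it holds the letters of both parts of the element bound by the repressor Rest, which silences many neuronal genes outside neurons. It spans bases 6 to 32 after the start site (RefSeq, GRCm38.p6, chr8:71671726-71671752, minus strand), with the reverse complements of GGACAG and of CAGCACC in capitals.
Unc13a: gcgCTGTCCgcgcccccGGTGCTGaag
The parts stand 8 bases apart. CAGCACC followed by GGACAG within 10 bases, on either strand and without overlap, was found in 0.11% of the 32851 promoter windows and in no other of the 44 genes. As above, this describes the letters, and binding was not measured. Rest itself lay between 1.39 and 3.15 CPM, and its part in the level of Unc13a was not tested.

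CAPS proteins prime dense core granules in particular. Cadps (ENSMUSG00000054423, chromosome 14 of GRCm38, 12372563 to 12823079, minus strand), or CAPS1, had 21.05, 20.5 and 26.1 CPM on plate 1 and 33.3, 29.4 and 36.8 CPM on plate 2. Cadps2 had 9.13, 7.73 and 8.69 CPM on plate 1 and 13.7, 12.7 and 14.0 CPM on plate 2. Cadps was higher in 6 of 6 libraries by 1.27 ± 0.13 (log2, SD, n = 6, exact permutation p = 0.03125, adjusted p = 0.0341), and the difference was 1.30 on plate 1 and 1.23 on plate 2.

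Complexins hold the assembled complex until calcium arrives. Cplx1 had 31.6, 30.8 and 26.2 CPM on plate 1 and 36.9, 35.5 and 34.8 CPM on plate 2. Cplx2 had 15.9, 21.6 and 12.2 CPM on plate 1 and 16.1, 16.1 and 14.8 CPM on plate 2. Cplx1 exceeded Cplx2 in 6 of 6 libraries by 0.98 ± 0.26 (log2, SD, n = 6, exact permutation p = 0.03125, adjusted p = 0.0341), least in plate 1 replicate 2 at 0.49. Cplx3, the complexin of ribbon synapses, had 0 counts.

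After fusion the complex is taken apart by the ATPase NSF with the SNAP adaptors, here Napa (alpha-SNAP) and Napb (beta-SNAP). Napa had 68.0, 64.6 and 63.7 CPM on plate 1 and 74.8, 93.8 and 75.9 CPM on plate 2. Nsf had 63.8, 61.9 and 63.3 CPM on plate 1 and 96.7, 52.6 and 88.2 CPM on plate 2, with its lowest value in the plate 2 library of middle total, and Napa was higher than Nsf in 4 of 6 libraries. Napb, the brain form, had 22.9, 21.5 and 22.0 CPM on plate 1 and 23.7, 23.0 and 20.5 CPM on plate 2. Napa exceeded Napb in 6 of 6 libraries by 1.67 ± 0.20 (log2, SD, n = 6, exact permutation p = 0.03125, adjusted p = 0.0341).

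The promoter of Napa is shown for its 3 copies of the palindrome CACGTG, an E-box, in capitals (250 bases before the start, RefSeq, GRCm38.p6, chr7:16098330-16098579, plus strand).
Napa: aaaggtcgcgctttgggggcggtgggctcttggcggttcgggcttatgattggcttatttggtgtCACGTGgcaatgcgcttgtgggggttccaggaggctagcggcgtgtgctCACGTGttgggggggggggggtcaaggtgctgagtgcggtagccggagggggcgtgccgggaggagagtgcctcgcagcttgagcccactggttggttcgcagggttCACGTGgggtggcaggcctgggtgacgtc
CACGTG was found in 20.4% of the 54 promoter windows of the 44 genes and in 7.15% of all windows. The GC box CCGCCC, on either strand, was found in 63% and 35.7%, and TATAAA, on either strand, in 5.56% and 13.6%. The genes detected at 1 CPM or more throughout had a median of 22 CG dinucleotides per window (37 genes), the 7 below the minimum had 16, and all 27025 genes had 8, taking for each gene its window with the most. These shares describe the windows only.

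Synaptotagmins divide into forms that bind calcium through their C2 domains and forms that do not, and both were present in about equal amounts. The 8 calcium-binding genes (Syt1, Syt2, Syt3, Syt5, Syt6, Syt7, Syt9 and Syt10) held 53.2 ± 0.96% of the counts of the 13 classified genes (SD, n = 6). This share lay between 52% and 54.4% in every library. Of the counts of calcium-binding forms 81.8 ± 0.96% were from Syt1 and Syt7 (SD, n = 6).

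Syt1 (ENSMUSG00000035864, chromosome 10 of GRCm38, 108497650 to 109010982, minus strand), the fast calcium sensor of synaptic vesicles, had 155, 138 and 149 CPM on plate 1 and 208, 186 and 203 CPM on plate 2. Syt7 (ENSMUSG00000024743, chromosome 19 of GRCm38, 10389090 to 10453180, plus strand), the high-affinity sensor of endocrine granules, had 132, 138 and 132 CPM on plate 1 and 118, 148 and 120.1 CPM on plate 2. Syt1 was higher than Syt7 in 6 of 6 libraries, by 0.38 ± 0.33 (log2, SD, n = 6, exact permutation p = 0.03125, adjusted p = 0.0341). The size of this difference depended on the plate, since it was 0.13 on plate 1, with a lowest value of 0.004 in plate 1 replicate 2, and 0.63 on plate 2. Syt5 and Syt9, found on dense core vesicles, followed. Syt5 had 30.9, 26.6 and 29.8 CPM on plate 1 and 33.6, 47.2 and 33.8 CPM on plate 2. Syt9 had 27.1, 29.3 and 22.9 CPM on plate 1 and 30.7, 28.0 and 33.0 CPM on plate 2, and the pair had no settled order, with Syt5 higher in 5 of 6 libraries. Syt7 exceeded Syt9 by 2.17 ± 0.25 and Syt5 by 1.95 ± 0.26 in 6 of 6 libraries (log2, SD, n = 6, each exact permutation p = 0.03125, adjusted p = 0.0341). Syt2, the sensor of fast hindbrain and neuromuscular synapses, lay between 2.33 and 4.42 CPM and Syt3 between 1.26 and 3.33 CPM. Syt6 at 0.493 CPM and Syt10 at 0.114 CPM were the lowest of the calcium-binding forms.

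Of the forms without calcium binding, Syt11 (ENSMUSG00000068923, chromosome 3 of GRCm38, 88744700 to 88775164, minus strand) had 169, 158 and 157 CPM on plate 1 and 170.0, 210.1 and 169 CPM on plate 2, and its order with Syt1 was not settled, since Syt1 was higher in 2 of 6 libraries. Syt13 had 61.8, 56.3 and 61.5 CPM on plate 1 and 70.7, 90.8 and 75.0 CPM on plate 2. Syt4 had 68.9, 64.1 and 63.9 CPM on plate 1 and 67.0, 61.8 and 67.0 CPM on plate 2, with overlapping plates. Syt4 was lower than Syt11 in 6 of 6 libraries by 1.38 ± 0.18 (log2, SD, n = 6, exact permutation p = 0.03125, adjusted p = 0.0341). Syt11 held 52.4 ± 1.62% of the counts of these 5 genes (SD, n = 6). Syt14 lay between 16 and 22.6 CPM and Syt16 between 1.41 and 3.45 CPM. Syt17, which was left out of the classification, lay between 3.49 and 6.2 CPM.

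Doc2 proteins and the rabphilin family also act in granule docking and release, and here a single gene made up nearly the whole group. Rph3al (ENSMUSG00000020847, chromosome 11 of GRCm38, 75830999 to 75938429, minus strand), or Noc2, a Rab3 and Rab27 effector of endocrine granules, had 179.5, 177 and 172 CPM on plate 1 and 180.5, 208 and 173 CPM on plate 2. Rph3a, the rabphilin of synaptic vesicles, had 0.250, 0.353 and 0.467 CPM on plate 1 and 0.605, 0.712 and 0.630 CPM on plate 2. Rph3al was higher in 6 of 6 libraries by 6.93 ± 0.16 (log2 of CPM + 1, SD, n = 6, exact permutation p = 0.03125, adjusted p = 0.0341), a size that moved to 8.29 and 5.08 with pseudocounts of 0.1 and 5 CPM. Doc2a lay between 2.17 and 6.18 CPM, and Doc2b had at most 7 counts in any library. Rph3al held 96.1% to 98.6% of the counts of the 4 genes.

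The promoters of this unequal pair are shown, each as the 250 bases before the start site (RefSeq, GRCm38.p6). Capitals mark any GC box CCGCCC and any part of the Rest element, on either strand, in Rph3al (chr11:75925892-75926141, minus strand, a RefSeq start inside the span given above, so that other starts of the gene are not shown), and in Rph3a (chr5:121009539-121009788, minus strand, the one of its 3 windows with the most CG).
Rph3al: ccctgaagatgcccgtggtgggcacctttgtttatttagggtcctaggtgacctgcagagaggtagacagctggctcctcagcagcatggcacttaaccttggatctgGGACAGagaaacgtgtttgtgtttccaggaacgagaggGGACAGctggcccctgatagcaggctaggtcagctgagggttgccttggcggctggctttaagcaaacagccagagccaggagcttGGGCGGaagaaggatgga
Rph3a: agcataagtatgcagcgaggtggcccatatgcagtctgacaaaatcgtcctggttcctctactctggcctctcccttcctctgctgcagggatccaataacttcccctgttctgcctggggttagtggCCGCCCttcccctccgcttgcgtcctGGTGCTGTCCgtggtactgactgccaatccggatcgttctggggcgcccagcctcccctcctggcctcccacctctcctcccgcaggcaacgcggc
The stretch of Rph3al holds 5 CG dinucleotides and that of Rph3a holds 12. Both hold CCGCCC on one of the strands. Rph3al holds GGACAG but not CAGCACC. In Rph3a the reverse complements of CAGCACC and GGACAG share 3 bases and stand in the opposite order to that in Unc13a, so that they meet neither the order nor the spacing used above.

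Rab3 and Rab27 GTPases tether granules to the release site. Rab3c (ENSMUSG00000021700, chromosome 13 of GRCm38, 110054187 to 110280996, minus strand) had 164, 159.9 and 154 CPM on plate 1 and 130.4, 131 and 136 CPM on plate 2. Rab3a, the synaptic form, had 65.1, 70.2 and 62.7 CPM on plate 1 and 83.0, 98.4 and 79.4 CPM on plate 2. Rab27a, of lysosome-related and insulin granules, had 26.7, 23.2 and 27.6 CPM on plate 1 and 33.2, 18.8 and 38.0 CPM on plate 2. Rab3d, of exocrine granules, had 17.9, 17.9 and 15.6 CPM on plate 1 and 20.7, 19.6 and 18.4 CPM on plate 2. The plates did not overlap for Rab3c, with plate 1 higher (4.00% of all detected genes did the same), nor for Rab3a and Rab3d, with plate 2 higher (39.8%). Rab27b had 7.75, 7.42 and 9.30 CPM on plate 1 and 16.0, 3.75 and 14.0 CPM on plate 2, and its plate 2 values lay both above and below those of plate 1. Rab3b lay between 3.98 and 6.79 CPM. Rab3a exceeded Rab3d by 1.99 ± 0.16 and Rab27a by 1.44 ± 0.47 in 6 of 6 libraries, and Rab27a exceeded Rab27b by 1.52 ± 0.35 (log2, SD, n = 6, each exact permutation p = 0.03125, adjusted p = 0.0341). Rab3c held 64.4% of the counts of the 4 Rab3 genes on plate 1 and 54.3% on plate 2.

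Rim proteins link Rab3 on the vesicle to Munc13 and calcium channels. Rims2 (ENSMUSG00000037386, chromosome 15 of GRCm38, 39198261 to 39684372, plus strand), the Rim of islet cells, had 27.2, 28.2 and 31.7 CPM on plate 1 and 38.8, 33.0 and 35.4 CPM on plate 2. Rims1, the main Rim of brain synapses, had at most 0.499 CPM, and Rims2 exceeded it in 6 of 6 libraries by 4.71 ± 0.13 (log2 of CPM + 1, SD, n = 6, exact permutation p = 0.03125, adjusted p = 0.0341), or 6.61 and 2.82 with pseudocounts of 0.1 and 5 CPM. Rims3 lay between 3.27 and 7.38 CPM. Rims4, a short Rim listed among the further regulators and not one of the 57 genes, lay between 46.6 and 65.4 CPM, above Rims2. Exph5, a Rab27 effector, lay between 1.36 and 2.22 CPM, Sytl5 between 0.935 and 2.31 CPM, and Sytl4, or granuphilin, the granule-docking protein of beta cells, had 0 to 5 counts per library. Myrip, a Rab27 effector outside the 57 genes, lay between 10.2 and 23.0 CPM. Sytl4 was below Sytl5 in 6 of 6 libraries by 1.34 ± 0.28 (log2 of CPM + 1, SD, n = 6, exact permutation p = 0.03125, adjusted p = 0.0341), a size that moved to 3.54 and 0.41 with pseudocounts of 0.1 and 5 CPM.

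In all, 24 pairs of genes that serve the same step were compared within each library, and the 6 differences were tested by flipping their signs in all ways (exact permutation, two-sided) with Benjamini-Hochberg adjustment over the 24. The order was the same in 6 of 6 libraries for 22 pairs, each at 0.03125, the smallest p that 6 libraries allow, and 0.0341 after adjustment. Such a p rests on the order alone, so any detected gene set against one near 0 counts gives it, as for Doc2b, where Doc2a was higher by 2.23 ± 0.45 (log2, SD, n = 6), or 4.95 and 0.83 with pseudocounts of 0.1 and 5 CPM. The pairs not separated were Stx1a with Stx4a and Snap25 with Snap29.

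**Figure D3:**
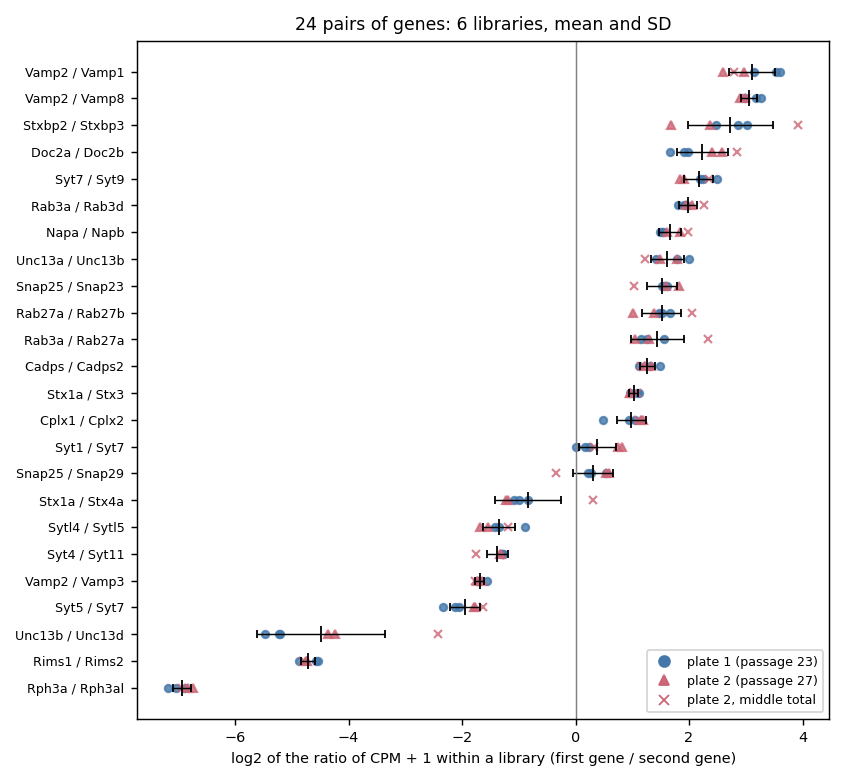
Log2 of the ratio of CPM + 1 between the genes of each of the 24 pairs, positive where the first gene is higher. Points are libraries, and black bars are the mean and SD over 6 libraries. In 22 pairs all points lie on one side of 0, and in the remaining 2 the cross, the plate 2 library of middle total, lies alone on the other side.

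Of 68 other genes of the pathway that were listed by function, 56 had at least 1 CPM in every library. This held for all 18 SNAREs of internal membranes, led by Vti1b at 123 CPM, and for all 9 exocyst subunits, led by Exoc5 at 77 CPM. It also held for 11 of 12 vesicle membrane proteins, led by Sv2a at 110.3 CPM, for 8 of 9 active zone proteins, led by Rimbp2 at 105 CPM, and for 10 of 20 further regulators. Of the further regulators, Syt8, Syt15 and Sytl3 had at most 3 counts in any library.

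The plates, which differ in passage, were compared across 15669 genes with edgeR's quasi-likelihood test and Benjamini-Hochberg adjustment. This test called 0.185% of the genes at an adjusted p under 0.05. Of the 57 genes 52 passed the filter on low counts, and 0 were called, with 8 at an unadjusted p under 0.05, or 15.4% against 16.1% of all genes tested. The median log2 difference of the 52, plate 2 over plate 1, was 0.05, beside 0.03 over all genes tested. DESeq2 called 2 of them, Rab3c and Unc13d, beside 3.70% of all genes, and limma-voom called 0, beside 0.191%. With library totals in place of TMM edgeR called 3, Cadps2, Doc2a and Syt1, beside 9.46% of all genes, and with no filter on low counts it called 1, Rab3c, beside 2.02%. In CPM, which are not scaled by TMM, all plate 2 libraries lay above all of plate 1 for 21 of the 49 detected members, beside 39.8% of all detected genes, and below all of plate 1 for 2, Unc13d and Rab3c, beside 4.00%. Of the 60 other pathway genes tested edgeR called 0, with 10 at an unadjusted p under 0.05, limma-voom called 0, DESeq2 and edgeR with no filter each called 1, Vti1b, edgeR with library totals called 9 (9.46% of all genes), and edgeR without the plate 2 library of middle total called 8, where it called 12.0% of all genes.

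Rab3c was nearest to the threshold, lower on plate 2 in all 3 libraries, at -0.53 on the log2 scale (edgeR, standard error 0.10, adjusted p = 0.0832). Unc13d had -1.12 (standard error 0.46, adjusted p = 0.316 from edgeR). Its plate 2 libraries had 180.1, 53.5 and 184 CPM against 243 to 256 CPM on plate 1. Doc2a had the highest value, 0.79 (standard error 0.24, adjusted p = 0.176 from edgeR), and lay on 2.17 to 3.13 CPM on plate 1 against 4.31 to 6.18 CPM on plate 2.

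Without the plate 2 library of middle total the test called 5 of 52 genes, where it called 12.0% of all genes. Unc13d fell by 0.77 in log2 terms (adjusted p = 0.000135 from edgeR), Rab3c fell by 0.57 (adjusted p = 0.00143), Syt7 fell by 0.48 (adjusted p = 0.00447) and Rph3al fell by 0.31 (adjusted p = 0.0386). Rab27b was higher on plate 2 by 0.57 (adjusted p = 0.0286 from edgeR). With all 6 libraries the edgeR difference of Rab27b was 0.19. It turned to -0.04 with limma-voom and to -0.13 without the plate 2 library of lowest total. Over the 12 alternative settings without a block the adjusted p ranged from 0.000135 to 0.58 for Unc13d, from 0.00143 to 0.382 for Rab3c, from 0.00447 to 0.764 for Syt7, from 0.0386 to 0.766 for Rph3al and from 0.0286 to 0.999 for Rab27b. The log2 difference of Rph3al ranged from -0.305 to 0.0873 over these settings. Its direction turned with library totals in place of TMM, where Rph3al was higher on plate 2 by 0.0873. The 5 of 52 are no larger a share than the 12.0% of all genes called in this fit.

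**Figure D4:**
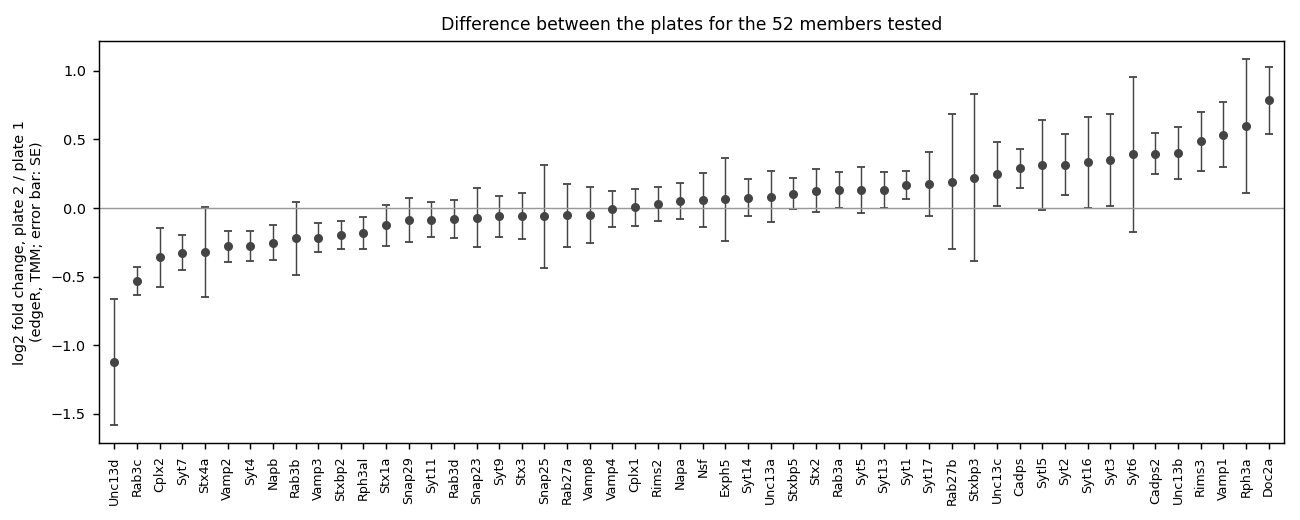
Log2 fold change of the 52 genes tested, plate 2 over plate 1, from edgeR with TMM scaling over 6 libraries. Error bars are standard errors, and none of the genes passed the adjusted threshold. Unc13d at -1.12 and Doc2a at 0.79 are the ends of the range.

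The plate 2 library of middle total was also set against the mean of the other plate 2 libraries. Among the 22 members that averaged 30 CPM or more, Unc13d, Snap25 and Stx4a (3 genes) were more than 2-fold lower there on the CPM + 1 scale and 0 were more than 2-fold higher, while 6.88% of 5031 genes at that level were as low. Over all 49 members with at least 1 CPM in every library there were 5, with Stxbp3 and Rab27b added, against 6.72% of 12360 genes, and 0 more than 2-fold higher, against 0.0647%. Stxbp3 had 3.66 CPM there against 17.1 CPM, Rab27b had 3.75 against 15 CPM, Unc13d 53.5 against 182 CPM, Snap25 28.5 against 78.8 CPM and Stx4a 16.2 against 40.4 CPM. In none of the other 5 libraries was any of the 22 members 2-fold from its plate, where at most 0.0398% of the 5031 genes were lower and 0.914% higher by as much. Among the 10 enteroendocrine markers, 2 were also more than 2-fold lower there, Insm1 at 45.1 against 249.6 CPM and Scg2 at 32.1 against 111 CPM, and 0 were more than 2-fold higher. Syt11 at 210.1 CPM and Rph3al at 208 CPM had their highest values in that library.

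Base composition of transcript ends moved with the difference in that library. Across 49 members, which share the libraries and are no replicates, Spearman's rho between the GC content of the last 200 nt and the log2 difference was 0.40, and across 11275 detected genes it was 0.50. Of the 5 members more than 2-fold lower there, Rab27b had the lowest GC content of the 49 genes, 22.5%. Snap25 had 38%, Stxbp3 and Stx4a each had 43.5%, and Unc13d, at 55.5%, lay above the median of 46%. Syt13 at 31% and Syt11 at 33% were low in GC content but higher in that library, each by 0.31 in log2. The part of base composition in these values was not tested.

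**Figure D5:**
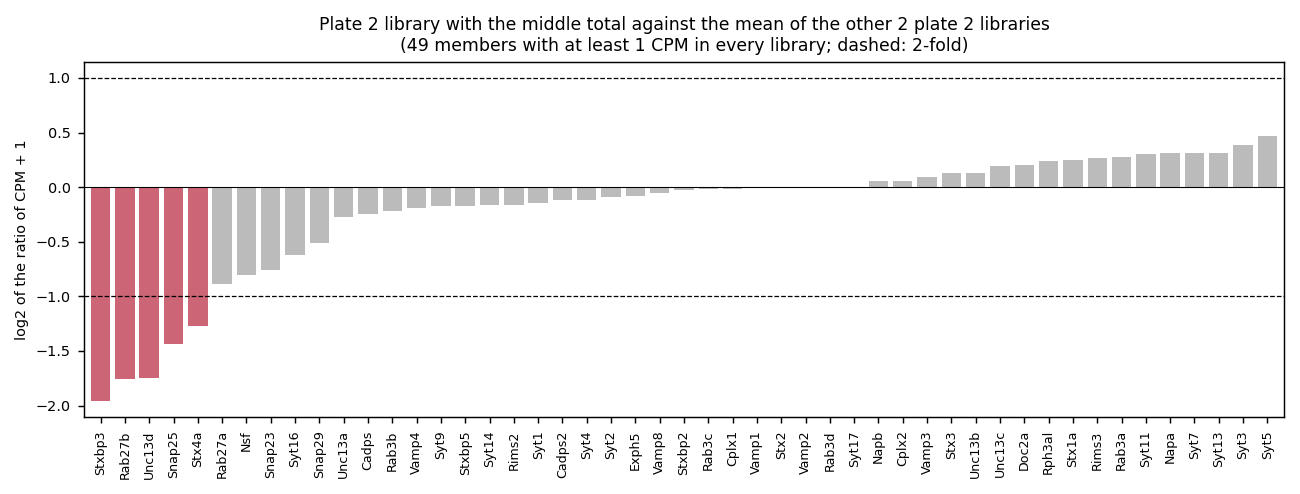
Log2 of the ratio of CPM + 1 of the plate 2 library of middle total to the mean of the other plate 2 libraries, for the 49 genes that reached 1 CPM throughout. Dashed lines mark 2-fold. The 5 coloured bars, Stxbp3, Rab27b, Unc13d, Snap25 and Stx4a, pass the lower line and no bar passes the upper one.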

How the data were processed

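Libraries were prepared from polyadenylated RNA of GLUTag cells with a 3′ mRNA kit (QuantSeq FWD). The authors trimmed reads (Trim Galore 0.6.4), quantified them with Salmon 1.5.1 without length correction on GRCm38 with GENCODE release M23, and deposited expected counts per gene, summed with Tximeta and not scaled. The strand setting of the quantification is not given in the sources used here. From these counts CPM over the library total were computed. Plate 2 columns could not be tied to single samples and are named by their totals.

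The 58 genes and all lists were chosen with earlier results of these data known. Every gene was to be covered by role, with values in each library for the leading genes of a role and for those that differed between plates or in the plate 2 library of middle total. Values in each library for further genes, the shares of Stx2, Vamp3, Unc13d, Syt1 with Syt7, Syt11, Rab3c and Rph3al, and the sequences shown were added after the values were seen. Paralogues were compared by log2 ratios of CPM + 1 in Python 3.11.15 (SciPy 1.17.1). Plates were compared on counts rounded to whole numbers with edgeR 4.0.16 (R 4.3.3, TMM, filterByExpr, robust quasi-likelihood test, Benjamini-Hochberg adjustment over all genes tested), and DESeq2 1.42.0 and limma 3.58.1 served as alternatives. A fit with the column numbers as a block was added after the data were seen. On data simulated for the plate comparison over 15669 genes, edgeR, limma-voom and DESeq2 each recovered 100% of 200 genes changed 4-fold, with 2.91%, 4.31% and 13.4% false calls. The simulation gave every gene the same spread between libraries, had no library that stood apart, and changed only genes above a minimum level. Its recovery therefore says nothing on differences as small as those of the members between the plates. Positions came from GENCODE release M21 of GRCm38, which held 54107 of the 54281 identifiers, and promoters from RefSeq, matched by symbol. No column of values was left out, and Vamp7 was not analysed here.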

Additional observations from a re-analysis of the deposited data

Results flagged for a closer look

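Of 56 values tested, 5 had a single library far from the other 5 by Dixon's ratio at its 95% critical value, and chance gives this in about 1 in 20. All 5 came from the plate 2 library of middle total. Unc13d, a priming factor, was at 53.5 CPM there against 180.1 to 256 CPM in the others. Syt5 was at 47.2 CPM against 26.6 to 33.8 CPM, Syt11 at 210.1 CPM against 157 to 170.0 CPM, and Rph3al at 208 CPM against 172 to 180.5 CPM. The share of Snap25 among the 3 SNAP genes was 36.2% against 46.2% to 51.1%. The cause was not tested.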

How the results depend on the processing

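The order of all 24 pairs kept its direction in the mean under every alternative (pseudocounts of 0.1 and 5 CPM, TMM or DESeq2 scaling, each library left out, each plate alone). With 5 libraries the smallest possible p is 0.0625, so leaving one out says nothing on significance. The size of a log2 difference moved by over 1.5 times with the pseudocount for Doc2a against Doc2b (4.95 at 0.1 and 0.83 at 5 CPM), Sytl5 against Sytl4 (3.54 and 0.41) and Rims2 against Rims1 (2.82 at 5 CPM). The genes detected numbered 50 at 0.5 CPM, 35 at 5 CPM, 52 with over 3 counts in every library and 50 with TMM scaling. Doc2b, Sytl4 and Syt10, at a few counts per library, are limited by depth.

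The count of genes that differ between plates depended on the setting. DESeq2 called 579 genes and 2 members (Rab3c and Unc13d, beside 3.70% of all genes), library totals without TMM called 1482 genes and 3 members (Cadps2, Doc2a and Syt1, beside 9.46%), and no filter called 545 genes and 1 member (Rab3c, beside 2.02%). Leaving out each library gave 0 to 1911 genes and 0 to 5 members, the highest without the plate 2 library of middle total. The edgeR counts of 0 came without plate 1 replicate 1 and without the plate 2 library of lowest total, where 1611 and 2121 genes had unadjusted p-values under 0.05. The cause was not tested. The sample titles number the replicates 1 to 6, whereas the matrix columns restart at 1 on plate 2. With these column numbers as a replicate block, a setting chosen after seeing the data, edgeR called 5 genes and 0 members (8 members, or 15.4%, at an unadjusted p under 0.05, beside 16.2% of all genes). Deviations from the plate means correlated at 0.02, 0.03 and 0.09 between libraries of the same number, and not every library correlated best with its own number. Such libraries were therefore taken to share only a number.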
